A study of Macaca mulatta with 4 samples.

Results

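Haploid embryonic stem cells (ESCs) of the rhesus monkey, Macaca mulatta, were compared with diploid ESCs across all named genes. A gene entered the comparison when it had a name, either in the deposited table or through its NCBI gene ID, and a mean of at least 1 FPKM over both ESC libraries. FPKM counts sequenced fragments per kilobase of a gene's transcript, corrected for the size of the library. These rules kept 11921 of the 23697 rows of the table. Of the 16972 rows with a name, 5051 fell below the filter. By the T2T-MMU8v2.0 gene table, 11354 of the compared genes lie on autosomes, 474 on the X and 6 on the Y chromosome, and 87 had no place in it. The series concerns haploid neural progenitor cells (NPCs) and their use in genetic screens. It has 4 samples, each 1 library: diploid ESCs and diploid NPCs labelled E3.5, and haploid ESCs and haploid NPCs labelled E2.5, all of embryo tissue and described as in vitro material. The labels give no animal, sex, cell line or passage, and do not say whether haploid cells were sorted before RNA extraction. Haploid NPCs were not analysed here, and diploid NPC values are given only for reference beside those of the ESCs.

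ESCs are grown from early embryos and keep the ability to form every tissue of the body. Diploid cells carry a maternal and a paternal copy of each chromosome, whereas haploid cells carry a single copy, so that a recessive mutation shows its effect at once. Female mammals silence a single X chromosome in each diploid cell, and in cells with only one working X the autosomes outnumber it, while in a haploid cell every chromosome is present equally. Diploid and haploid ESCs here differ in ploidy, in labelled embryonic day and in the culture each came from, and with 1 library per group these cannot be told apart. No difference below has a replicate error, an SD or a p-value, and genes are counted past fixed sizes of difference. In these bulk libraries fewer cells of a type and less RNA per cell cannot be told apart either.

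Ratios are log2 ratios of FPKM plus 1, haploid over diploid, so that 1 is 2-fold and 2 is 4-fold, and low values give smaller ratios than their fold. The median ratio over the 11921 genes was 0.06, with quartiles at -0.38 and 0.46, and 83.9% of genes lay within 2-fold. FPKM summed to 568734 in the diploid and 492324 in the haploid library. The spacing of low values put the depth of the haploid library at 95.3% of that of the diploid one. Ratios were higher for longer genes (Spearman correlation 0.31 over 11834 genes, a description), from a median of -0.24 in the shortest of 5 equal length classes to 0.36 in the longest. Length here is the span of a gene in the T2T-MMU8v2.0 gene table, not the length of its transcript. It is given beside several of the gene lists it moves with, and its part in them was not tested.

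The marker genes of ESCs were abundant in both libraries. All 11 markers exceeded 1 FPKM in each, and their FPKM summed to 3449 in the diploid and 2457 in the haploid library, against 132 in NPCs. SOX2, a core pluripotency factor, stood at 149 FPKM in the diploid and 161 FPKM in the haploid library. It was abundant in NPCs as well, at 109 FPKM. The median ratio of the 11 was -0.36, with DNMT3B, PRDM14 and ZFP42 at least 2-fold lower and none at least 2-fold higher. Markers of other cell types were looked for as well. All 8 endoderm markers were lower by 2-fold or more, and their FPKM summed to 305 in the diploid and 16.9 in the haploid library, with FOXA1 listed at 0 in the latter. The 16 fibroblast and feeder cell markers summed to 362 FPKM in the diploid and 513 FPKM in the haploid library, with none at 0 in either. The 12 neuron markers summed to 87.6 and 90.1 FPKM, the 8 endothelial markers to 12.2 and 17.6 FPKM, and the 8 measured blood markers to 3.23 and 6.81 FPKM. The 4 genes taken to mark the comparison lay far apart in level. SOX17, which directs endoderm formation, stood at 60.4 FPKM in the diploid and 0.1 FPKM in the haploid library. SNURF, an imprinted transcript, was at 473 and 0.82 FPKM. GLIPR1, a secreted-protein family member, went the other way, at 2.59 and 99.3 FPKM, as did ZEB1, a repressor of epithelial genes, at 1.4 and 14.5 FPKM.

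Genes at least 4-fold lower in haploid ESCs outnumbered those at least 4-fold higher. There were 262 lower genes (2.2% of those compared) and 95 higher genes (0.797%). Past 2-fold there were 1059 lower genes (8.88%) and 861 higher genes (7.22%), a more even split. Among autosomal genes it was less even, with 1030 lower (9.07%) and 706 higher (6.22%). Higher genes made up 26.6% of the 4-fold calls, and 37.9% after scaling both libraries to a sum of 1000000. That scaling moved the median of all genes up by 0.18, and as it raised all levels it also let 12888 genes pass the filter. Of the 4-fold calls, 20 genes were listed at 0 in one library, and for these no ratio is read as a fold. The threshold ran through a dense range of values. PDGFC, at a log2 ratio of 2.00, was just inside it and SALL3, at 1.99, just outside, as were PHLDB3 at -2.01 and DUSP15 at -1.99 on the lower side.

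**Figure D1:**
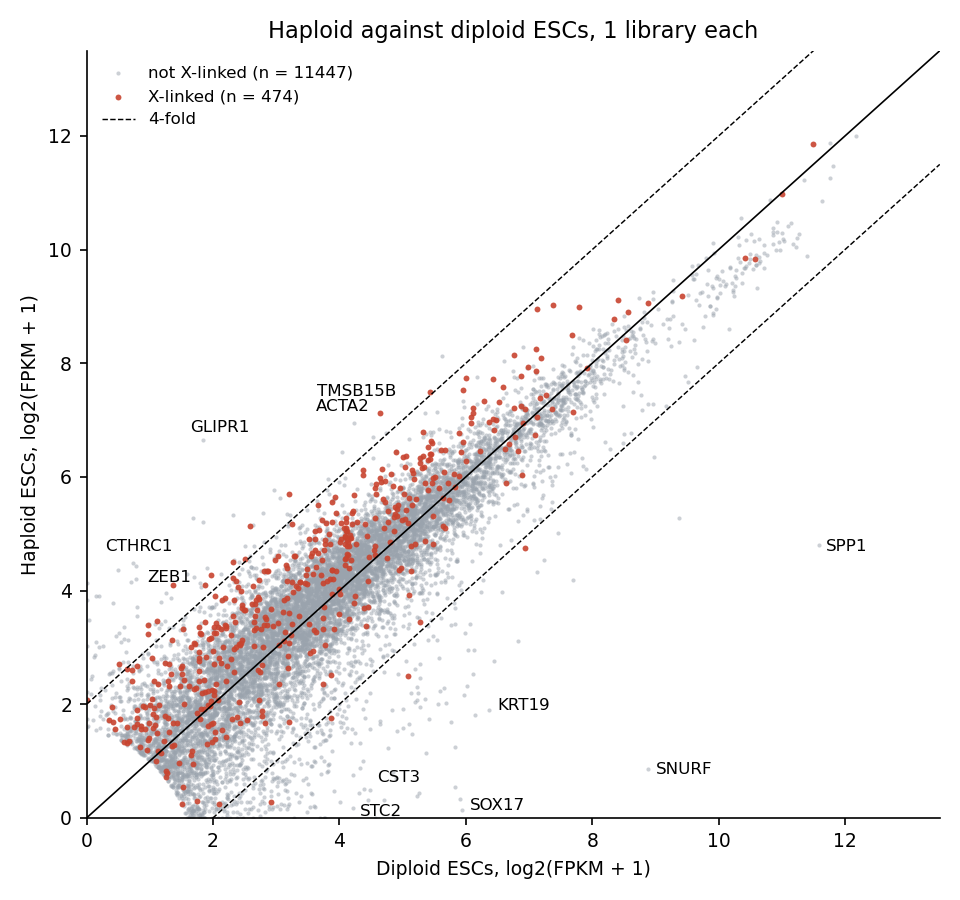
Levels of the 11921 compared genes in haploid (vertical) against diploid ESCs (horizontal), both as log2(FPKM + 1), with 1 point per gene, X-linked genes in red, the line of equality solid and the 4-fold lines dashed. Most points lie within 4-fold, more of the outlying points lie below the lower line than above the upper one, and the X-linked points lie mainly above the line of equality.

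X-linked genes stood apart from autosomal genes. Their median ratio was 0.68, against 0.05 for autosomal genes, a difference of 0.63 on the log2 scale. No autosome came near it, since the autosomal medians ran from -0.29 on chromosome 19 to 0.28 on chromosome 5. Of the 474 X-linked genes, 373 were higher in haploid ESCs (78.7%), and 147 were at least 2-fold higher (31.0%), against 6.22% of autosomal genes. Only 14 were at least 2-fold lower. X-linked genes are 3.98% of those compared, yet they made up 17.1% of the genes at least 2-fold higher and 1.32% of those at least 2-fold lower. The difference between X-linked and autosomal medians was present in all 4 classes of level above the filter. It was 0.61 among genes with a mean of 1 to 5 FPKM, 0.57 from 5 to 20 FPKM, 0.71 from 20 to 100 FPKM and 0.74 above 100 FPKM. With no filter, so that genes under 1 FPKM entered, it was smaller, at 0.39. It was present in all 5 length classes too, from 0.86 in the shortest class to 0.50 in the longest. The median level of autosomal genes was 11.2 FPKM in diploid ESCs, while it was 12.02 FPKM in haploid ESCs and 10.8 FPKM in diploid NPCs. Among X-linked genes it was 10.1, 16.0 and 8.41 FPKM, so that haploid ESCs were the library that stood out. In diploid NPCs over diploid ESCs, a comparison added after seeing the data that shares the diploid ESC library, the X and autosomal medians differed by 0.0057.

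**Figure D2:**
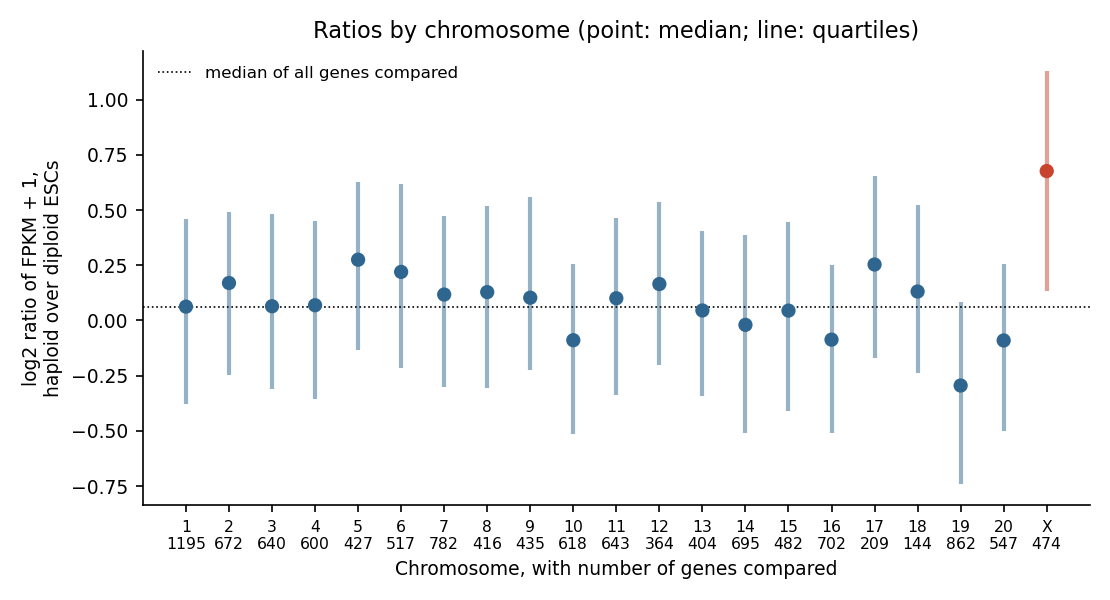
Median (point) and quartiles (line) of the log2 ratio of FPKM plus 1, haploid over diploid ESCs, for each autosome and the X chromosome (red), with the number of genes under each name. The X median of 0.68 lies above all autosomal medians, and chromosome 19 has the lowest at -0.29.

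The X-linked genes past 4-fold serve many functions. The highest ratio was that of CENPVL3, a gene related to the centromere protein CENPV, at 1.58 and 16.2 FPKM. GDPD2, a glycerophosphodiesterase, stood at 5.03 FPKM in the diploid and 34.1 FPKM in the haploid library. TMSB15B, which encodes an actin-binding thymosin, was at 23.9 and 139 FPKM, and its near copy TMSB15A at 42.2 and 180 FPKM, so that the split of reads between them is uncertain. PCDH11X, an adhesion protein of the protocadherin family, stood at 1.17 and 10 FPKM, and NAP1L2, a nucleosome assembly protein, at 2.92 and 18.3 FPKM. MBNL3, a splicing regulator, was at 0.97 and 8.36 FPKM. TMEM47, a membrane protein of cell junctions, was at 8.17 and 50.7 FPKM and XK, a membrane protein of red cells, at 0.97 and 9.47 FPKM. These 9 are among the 14 X-linked genes at least 4-fold higher in haploid ESCs. Widely used chromatin and cell cycle genes on the X chromosome were higher as well. RLIM, a ubiquitin ligase that activates X inactivation in mouse, stood at 11.3 FPKM in the diploid and 29.1 FPKM in the haploid library. SMC1A, a subunit of the cohesin ring, was at 31.3 and 80.3 FPKM, ATRX, a chromatin remodeller, at 17.5 and 40.1 FPKM, and POLA1, the catalytic subunit of the polymerase that starts DNA synthesis, at 24.3 and 59.5 FPKM. RBM3, an RNA-binding protein induced by cold, was at 138 and 495 FPKM. The exceptions were few. FGF16, a growth factor, was at 6.58 and 0.21 FPKM, FHL1, a LIM protein of muscle, at 33.1 and 4.63 FPKM, EGFL6, an extracellular matrix protein, at 13.6 and 2.4 FPKM, and PLP2, a membrane proteolipid, at 122 and 25.9 FPKM. These were the 4 X-linked genes at least 4-fold lower.

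Genes known to avoid silencing on the inactive X chromosome of human cells differed less than other X-linked genes. The list of 24 such genes was drawn up after the X-linked ratios had been seen, and it assumes that the same genes escape in the monkey. Of its 23 compared members, 2 were at least 2-fold higher in haploid ESCs, KDM6A, a histone demethylase, at 7.99 and 19.99 FPKM and SMC1A, and the median ratio was 0.28. Among the 446 other X-linked genes outside the pseudoautosomal region, 145 were at least 2-fold higher (32.5%) and the median was 0.71. Ratios also varied along the X chromosome, and the place of the listed genes on it was not taken into account. DDX3X, an RNA helicase, stood at 117 FPKM in the diploid and 217 FPKM in the haploid library, while RPS4X, a ribosomal protein, was lower in haploid ESCs, at 1518 and 914 FPKM. USP9X, a deubiquitinase, stood at 62.9 and 76.5 FPKM, and OFD1, a centriole protein, at 34.1 and 19.3 FPKM. The pseudoautosomal region is the end of the X chromosome that the Y chromosome shares, and its genes are active on both. The median of its 7 compared genes was -0.24, below that of all genes. SLC25A6, a mitochondrial ADP/ATP carrier, was at 683 and 580 FPKM and PLCXD1, a phospholipase-like protein, at 28.1 and 14.1 FPKM. Of the 7, 2 were higher. ZBED1, a zinc finger protein, was at 16.2 and 22.8 FPKM, and SHOX, a homeobox gene of limb growth, at 0.41 FPKM in the diploid and 19.4 FPKM in the haploid library. Genes found only on the Y chromosome were mostly low. KDM5D, a Y-linked histone demethylase, stood at 0.03 and 0.14 FPKM, EIF1AY, an initiation factor, at 0.64 and 2.62 FPKM, and NLGN4Y, a synaptic adhesion protein, at 1.19 and 4.85 FPKM. DDX3Y was listed at 51.6 and 50.4 FPKM, and since it is a near copy of DDX3X its reads are uncertain. The same limit holds for EIF1AY and NLGN4Y. Their X-linked partners were more abundant, EIF1AX at 122 and 146 FPKM and NLGN4X at 15.1 and 27.8 FPKM. XIST was not analysed here.

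The shift was spread along the X chromosome but was not even. With the genes divided in chromosome order into 10 groups of like size, median ratios ran from 0.35 in the group from MAOA to PLP2 up to 1.11 in the group from ATRX to BEX4. Along a running median of 41 genes, the highest value was 1.12, between SNX12 and RPS6KA6, where 23 of 41 genes were at least 2-fold higher. The lowest was -0.14, between SYN1 and NUDT10, where 19 of 41 genes were higher, 2 at least 2-fold higher and 5 at least 2-fold lower. The running median fell below the autosomal median only at windows centred from RBM3 to PLP2, with a brief return just above it. The longest run of neighbouring compared genes that were all at least 2-fold higher held 7 genes, APOOL, ZNF711, CHM, KLHL4, PABPC5, PCDH11X and NAP1L3. A run of 5 genes held HNRNPH2 and 4 members of the ARMCX family. Gene order is that of the T2T-MMU8v2.0 gene table, another assembly than the one the reads were mapped to.

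**Figure D3:**
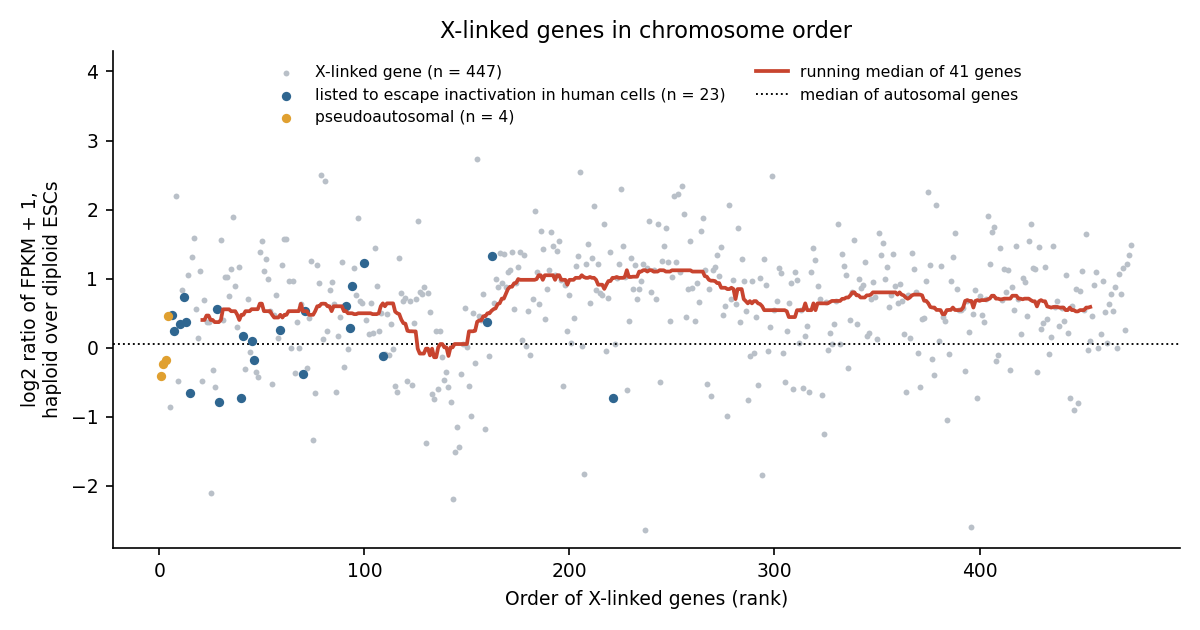
Log2 ratio of FPKM plus 1, haploid over diploid ESCs, for the X-linked genes in chromosome order (rank, not position), with the running median of 41 genes in red, genes listed to escape inactivation in human cells in blue, pseudoautosomal genes placed on the X chromosome in yellow, and the autosomal median of 0.05 dotted. The running median falls below the autosomal median only between RBM3 and PLP2, to as low as -0.14, and reaches 1.12.

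Chromosome 19 was the autosome with the lowest ratios. Its median was -0.29 over 862 genes, and 17.3% of them were lower by 2-fold or more. Of its genes, 26.6% belonged to the shortest length class. With each ratio taken relative to genes of like length the median was still -0.26. The 137 numbered zinc finger (ZNF) genes on chromosome 19, which encode DNA-binding proteins and stand there in clusters, did not share in this, with a median of 0.06, and the other 725 genes had a median of -0.35. Among the latter, CRB3, an apical polarity protein, stood at 40.2 FPKM in the diploid and 1.2 FPKM in the haploid library, and AP1M2, an epithelial sorting adaptor, at 20.9 and 0.25 FPKM.

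The remaining gene classes are described by lists and by families of shared symbol, 119 of which had at least 5 compared genes. Of these, 12 had a median ratio of -0.5 or less, 14 of 0.5 or more and 93 lay between. The classes with low medians included keratins, targets of the stress factor ATF4, immediate early genes and genes of the primitive streak. Those with high medians included protocadherins, contractile genes, matrix glycoproteins and the Hedgehog pathway. Counts past 4-fold are read against 0.797% higher and 2.2% lower of all genes, and counts past 2-fold against 7.22% and 8.88%. Counts of higher members are read against 54.0% of all genes, and medians against 0.06. All hold for the values as deposited.

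**Figure D4:**
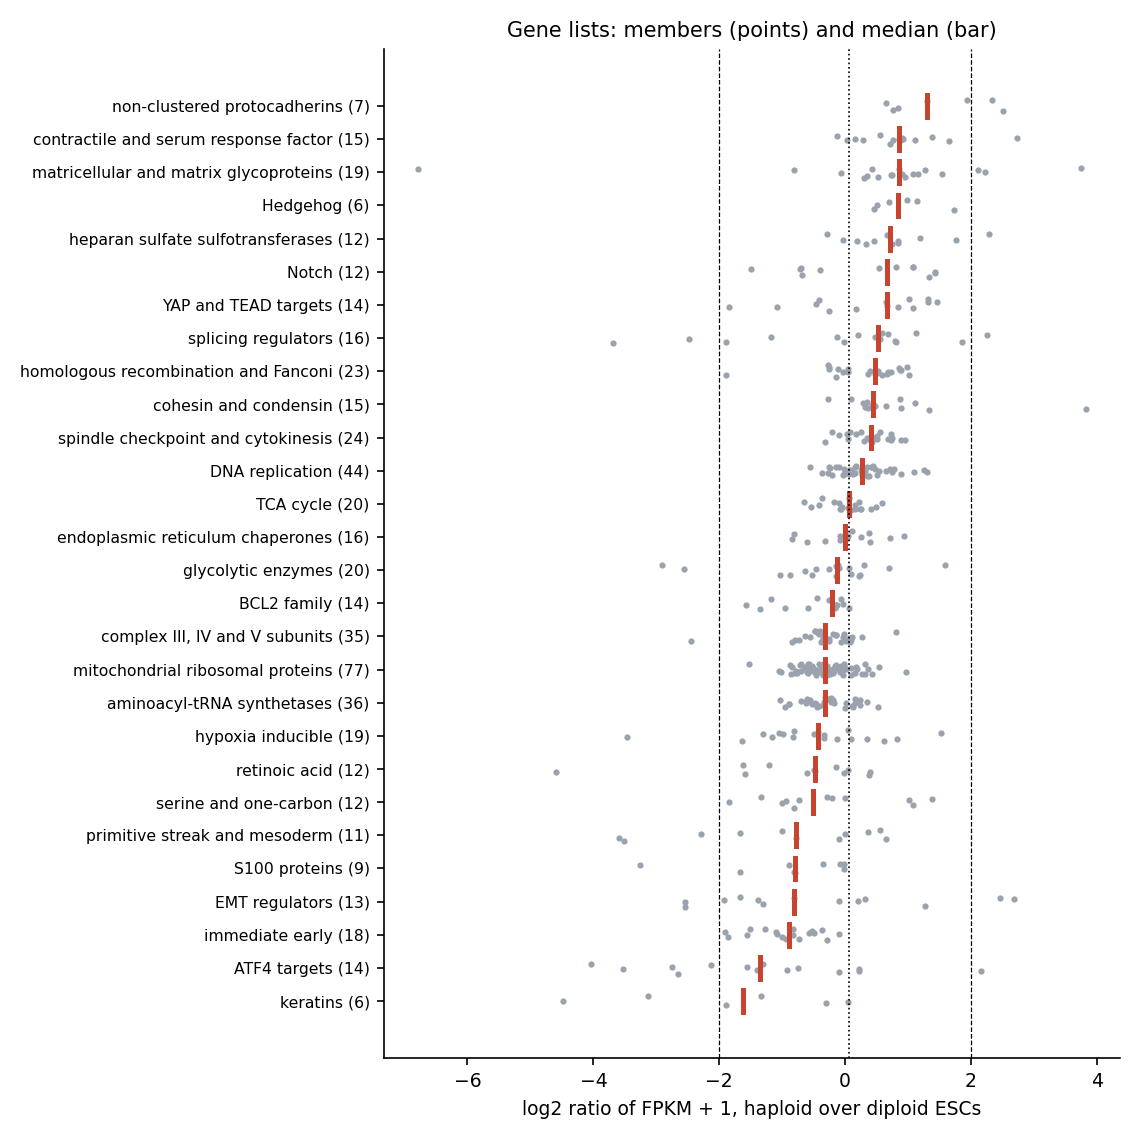
Log2 ratios of FPKM plus 1, haploid over diploid ESCs, of the compared members (grey points) and their median (red bar) for 28 lists and families, with the number of members in brackets, the median of all genes dotted and the 4-fold limits dashed. Keratins and ATF4 targets lie lowest, TCA cycle enzymes lie at the median of all genes within a narrow range, and protocadherins lie highest.

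Targets of ATF4 were lower in haploid ESCs while chaperones of the endoplasmic reticulum were not. ATF4 is a transcription factor whose translation increases when cells lack amino acids or accumulate misfolded protein, and its targets restore amino acid supply or limit growth. Of 14 compared members of this list, ATF4 itself among them, 8 were lower by 2-fold or more, 5 of these by 4-fold or more, and 1 was higher by over 4-fold. The median ratio was -1.35. STC2, a secreted glycoprotein, stood at 17.6 FPKM in the diploid and 0.13 FPKM in the haploid library. SESN2, an inhibitor of the growth kinase mTORC1, was at 35.4 and 7.29 FPKM, and DDIT3, the stress factor CHOP, at 51.2 and 18.7 FPKM. ATF4 itself stood at 424 and 252 FPKM. Of the 3 members that were higher, the only one past 2-fold was CHAC1, which degrades glutathione, at 0.32 and 4.88 FPKM. Of 16 endoplasmic reticulum chaperones and their partners, which fold secreted proteins, 8 were higher and 8 lower. None reached 2-fold on the scale of FPKM plus 1, and the median was 0.01. HSPA5, the chaperone BiP, was the lowest of them, at 471 and 262 FPKM, and DNAJC3 the highest, at 7.04 and 14.4 FPKM. Enzymes that make serine and one-carbon units, several of them ATF4 targets in other cells, had a median of -0.51. SHMT2, their mitochondrial hydroxymethyltransferase, stood at 135 and 37.0 FPKM and PHGDH, the first enzyme of serine synthesis, at 250 and 142 FPKM. MTHFD1, the cytosolic folate enzyme, was at 40.3 and 107 FPKM, so that the pathway did not differ as a block. Of 21 amino acid transporters, 6 were lower and 2 higher by 2-fold or more, around a median of 0.00. Among the lower ones, SLC1A4, a neutral amino acid carrier, stood at 7.01 and 0.62 FPKM. The highest ratio was that of SLC6A8, an X-linked carrier of creatine, at 38.9 and 110 FPKM.

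**Figure D5:**
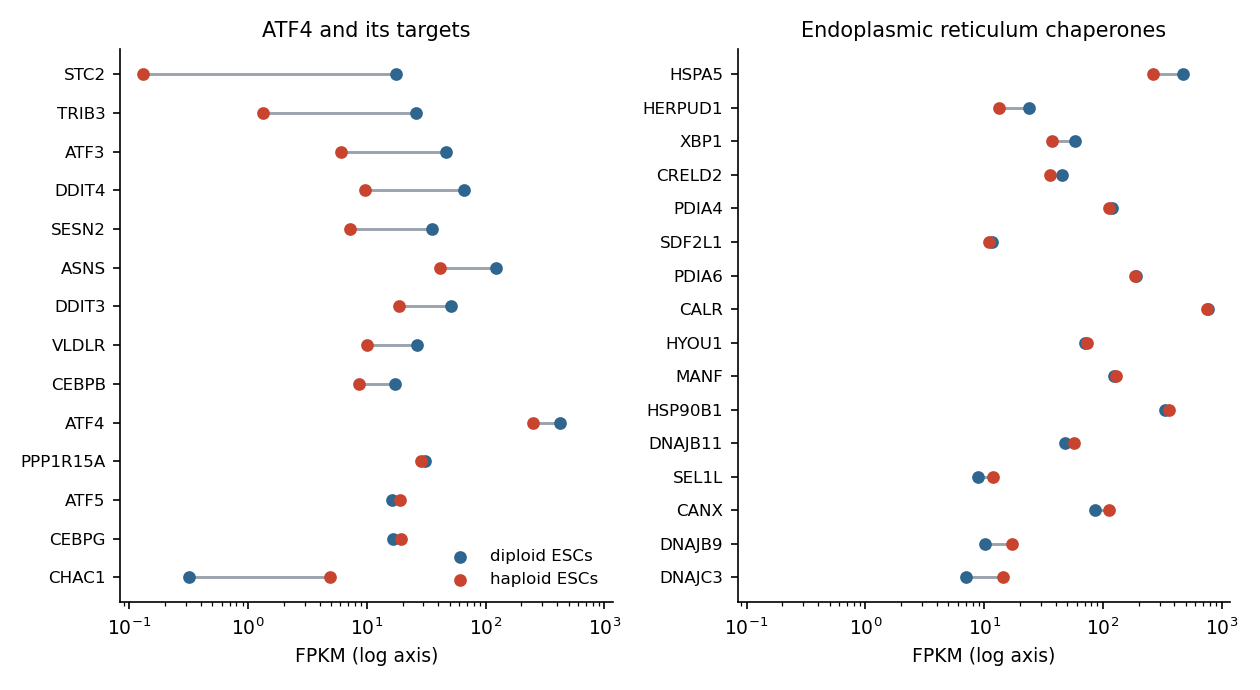
FPKM on a log axis in diploid (blue) and haploid ESCs (red), 1 library each, for ATF4 and its compared targets (left, 14 genes in all) and for endoplasmic reticulum chaperones and their partners (right), ordered by ratio. On the left 11 of 14 genes are lower in haploid ESCs, STC2 and TRIB3 by the widest margins, and on the right the paired points lie close together.

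All 18 immediate early genes were lower in haploid ESCs. These genes are switched on within minutes of a growth factor or stress signal without new protein synthesis. The median ratio was -0.88, and 8 of the 18 were at least 2-fold lower, but none reached 4-fold. JUN, a subunit of the AP-1 transcription factor, stood at 162 FPKM in the diploid and 42.3 FPKM in the haploid library. EGR1, a zinc finger factor, was at 145 and 86.9 FPKM, whereas FOS, the partner of JUN, was close between libraries at 97.1 and 91.0 FPKM. Relative to genes of like length the median was -0.65. In the MYC network, MYC was at 122 and 56.9 FPKM, and MYCN, its relative in embryonic cells, at 28.1 and 23.4 FPKM.

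Hypoxia-inducible and glycolytic genes differed by isoform more than as a class. The hypoxia list had a median of -0.43 over 19 genes, with 5 lower and 1 higher by 2-fold or more. ADM, a vasodilator peptide, stood at 17.6 FPKM in the diploid and 0.69 FPKM in the haploid library, and VEGFA, the endothelial growth factor, at 39.0 and 15.1 FPKM, while HIF1A, the oxygen-regulated factor itself, was at 36.5 and 65.4 FPKM. Among 20 glycolytic enzymes the median was -0.13. The most abundant ones were close, with GAPDH at 2622 and 2383 FPKM, but alternative isoforms were not. ENO2, the neuronal enolase, stood at 10.3 and 0.51 FPKM and PFKP, a phosphofructokinase, at 37.5 and 5.51 FPKM. LDHA, which makes lactate, went the other way, at 71.1 and 215 FPKM. The 20 enzymes of the TCA cycle in mitochondria stayed within 2-fold without exception and had a median of 0.06, from MDH2 at -0.66 to IDH3G at 0.58. SLC16A3, a lactate exporter, was at 36.6 and 3.21 FPKM. Among antioxidant genes, HMOX1, which degrades heme, was at 43.6 and 8.21 FPKM, and it was the only one of 24 past 4-fold.

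Subunits of mitochondrial machines and synthetases that charge tRNA were a little lower. Of 77 mitochondrial ribosomal proteins, 64 were lower in haploid ESCs, 3 of them past 2-fold, around a median of -0.32. MRPL33 stood at 40.7 and 13.4 FPKM, and MRPL3, the highest ratio, at 44.3 and 87.5 FPKM. Subunits of respiratory complexes III, IV and V had a median of -0.31, 27 of 35 being lower, and those of complex I a median of -0.17. The only subunit past 4-fold was COX6B2, a testis isoform, at 5.09 and 0.11 FPKM. Many of these genes are short, and relative to genes of like length the medians were -0.22, -0.12 and -0.04. Among 36 aminoacyl-tRNA synthetases, which are not short as a class, 27 were lower, with a median of -0.32, and -0.42 relative to genes of like length. SARS1 stood at 69.3 and 33.4 FPKM.

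Cell cycle genes were a little higher in haploid ESCs, rarely by 2-fold. Of 24 genes of the spindle checkpoint and cytokinesis, 21 were higher, none 2-fold, with a median of 0.41. ANLN, a scaffold of the dividing cell's furrow, was at 20.3 FPKM in the diploid and 40.4 FPKM in the haploid library, and CDC20, an activator of the anaphase complex, at 221 and 178 FPKM. Of 44 DNA replication genes, 33 were higher, 3 of them past 2-fold, around a median of 0.26. RFC3, a loader of the sliding clamp, stood at 13.0 and 33.5 FPKM and PCNA, the clamp, at 149 and 212 FPKM, whereas MCM5, a helicase subunit, was at 88.4 and 59.96 FPKM. Cohesin and condensin subunits had a median of 0.45, with 14 of 15 higher. NCAPH, a condensin subunit, was listed at 0 in diploid ESCs and in NPCs and at 13.3 FPKM in haploid ESCs, while the other subunits of its complex were above 20 FPKM in every library, so its row is uncertain. Homologous recombination genes had a median of 0.47, with 16 of 23 higher, and the lowest ratio among them was that of CHEK2, a checkpoint kinase, at 10.5 and 2.11 FPKM. Gene length moves with these classes: relative to genes of like length the medians were 0.33, 0.14, 0.29 and 0.17. The regulators of entry into the cycle diverged more. CDK6, a kinase of the G1 phase, stood at 2.65 and 16.3 FPKM and CCND3, its cyclin partner, at 9.55 and 27.6 FPKM, whereas CCND1 was at 38.3 and 14.7 FPKM. CDKN1A, the inhibitor p21, was at 6.18 and 2.26 FPKM.

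Members of the BCL2 family were mostly lower by small amounts in haploid ESCs. In this family, which sets the threshold of apoptosis, 13 of 14 members were lower and the median was -0.21. The lower members past 2-fold, HRK, BBC3 and BIK, all encode death-promoting proteins with a BH3 domain. BBC3, also called PUMA, was at 23.0 and 8.4 FPKM, while BAX, an executioner, was at 173 and 157 FPKM.

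Enzymes of chromatin differed mostly by less than 2-fold, with exceptions in DNA methylation. The maintenance enzyme DNMT1 was at 52.6 FPKM in the diploid and 55.6 FPKM in the haploid library. UHRF1, which guides it to newly copied DNA, was at 15.8 and 56.7 FPKM. The embryonic methyltransferase DNMT3B was at 391 and 109 FPKM, whereas DNMT3A was at 41.7 and 40.8 FPKM. ZFP57, a zinc finger protein that protects imprints in the mouse embryo, was at 7.82 and 0.41 FPKM. Of 27 Polycomb genes, which keep developmental genes silent, 1 was at least 2-fold higher, BMI1 at 4.06 and 12.7 FPKM, and 1 was lower by as much, CBX7 at 2.72 and 0.59 FPKM, with a median of 0.12. The 16 lysine demethylases had a median of 0.31 and only KDM6A passed 2-fold. Histone genes had a median of 0.20, with the linker histone HIST1H1A at 9.49 and 0.3 FPKM. POT1, which caps chromosome ends, was at 53.4 and 9.5 FPKM, the only telomere gene of 13 past 2-fold.

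Signals and factors of the primitive streak were lower in haploid ESCs, and the Nodal pathway was split. The streak is the site where the embryo forms mesoderm and endoderm, under Nodal, Wnt and FGF signals. Of 11 compared streak genes, 3 were at least 4-fold lower and none 2-fold higher, with a median of -0.78. GSC, a homeobox factor of the organizer, stood at 68.6 FPKM in the diploid and 4.8 FPKM in the haploid library. LHX1, a LIM homeobox factor, was at 32.2 and 5.78 FPKM, and EOMES, a T-box factor, at 27.4 and 15.6 FPKM. NODAL itself stood at 59.5 and 15.03 FPKM and its antagonist CER1 at 663 and 37.6 FPKM. Its receptors differed less and in both directions, with ACVR1B at 13.9 and 9.6 FPKM and ACVR2A at 5.01 and 8.66 FPKM. GDF3, a related ligand, went the other way, at 3.99 and 39.1 FPKM. Among BMP ligands BMP2 was at 8.14 and 0.28 FPKM and BMP4 at 5.26 and 18.4 FPKM. Of the FGF ligands, FGF17 stood at 207 and 17.3 FPKM and FGF2, which supports primate ESCs in culture, at 10.2 and 15.7 FPKM. Feedback inhibitors of FGF signalling went both ways, with SPRY4 at 53.8 and 24.3 FPKM and SPRED1 at 15.4 and 37.6 FPKM.

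Wnt genes differed at the receptors. FZD5 stood at 55.1 FPKM in the diploid and 12.8 FPKM in the haploid library, whereas FZD10 was at 2.23 and 17.9 FPKM. LGR5, which amplifies Wnt signals, was at 19.9 and 0.42 FPKM. LEF1, a nuclear effector and target of the pathway, was at 0.77 and 4.99 FPKM and AXIN2, its standard target, at 3.74 and 5.67 FPKM. The Hedgehog list was higher in all 6 compared members, with a median of 0.83. GLI3, a transcription factor of the pathway, was at 1.5 and 7.28 FPKM. Among 12 Notch genes the receptors were higher and a ligand lower: NOTCH3 stood at 12.6 and 35.7 FPKM and DLL1 at 4.38 and 0.9 FPKM. The median of 0.67 for the Notch list, 0.61 above that of all genes, depended on the setting. With no filter the list stood at -0.21 relative to all genes. It stood at -0.0022 when each library was rescaled to the same sum, which also let more genes pass the filter. YAP1, the growth-control coactivator of the Hippo pathway, was at 43.6 and 110 FPKM and its DNA-binding partner TEAD1 at 11.5 and 33.7 FPKM. The list of these factors and their targets had a median of 0.66, with 9 of 14 higher, 5 of them past 2-fold, and 2 lower past 2-fold. Relative to genes of like length the median was 0.47. Within this list the secreted targets CYR61 and CTGF were lower, at 195 and 142 FPKM and at 198 and 165 FPKM.

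Matrix and contractile genes were higher in haploid ESCs. Matrix glycoproteins had a median of 0.85, with 16 of 19 higher and 3 at least 4-fold higher. CTHRC1, a secreted protein of wound repair, stood at 0.67 FPKM in the diploid and 21.5 FPKM in the haploid library, and NID1, a linker of basement membranes, at 8.29 and 39.0 FPKM. The exception was SPP1, or osteopontin, at 3071 and 26.8 FPKM, while fibronectin, FN1, was at 66.5 and 37.6 FPKM. Of 15 contractile genes, many of them targets of serum response factor, 14 were higher, 4 of them past 2-fold, around a median of 0.86. ACTA2, the smooth muscle actin, was at 17.8 and 123.2 FPKM and MYL9, a myosin light chain, at 119 and 310 FPKM. TAGLN and CNN1, which mark the same muscle, were closer, at 430 and 393 FPKM and at 72.5 and 107 FPKM. MYH11, the smooth muscle myosin, was at 0.73 and 10.7 FPKM, and ACTC1, the cardiac actin, at 48.4 and 279 FPKM. The fibroblast and feeder cell markers moved with these classes, with a median of 0.74 over 13 compared genes, and their part in them was not tested. Within that list the members were uneven: COL3A1, a fibrillar collagen, stood at 13.1 and 61.1 FPKM, COL1A1 at 235 and 206 FPKM, TWIST1, a mesenchymal factor, at 8.03 and 2.47 FPKM, and LUM, a defining proteoglycan of fibroblasts, at 0.98 and 0.26 FPKM. Gene length moves with them as well. Relative to genes of like length the medians were 0.66 for matrix glycoproteins, 0.57 for contractile genes and 0.54 for the fibroblast markers.

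Adhesion and surface genes differed by family and, within some families, by member. All 7 non-clustered protocadherins were higher in haploid ESCs, with a median of 1.29. Of these, PCDH11X and PCDH19 are X-linked, at log2 ratios of 2.34 and 0.85. PCDH7 stood at 5.2 FPKM in the diploid and 34.5 FPKM in the haploid library and PCDH18 at 7 and 29.6 FPKM. Among classical cadherins, CDH1, the epithelial cadherin, was at 17.1 and 1.5 FPKM and CDH9 at 0.05 and 3.52 FPKM. CDH2, the neural cadherin, was at 46.6 and 114 FPKM, while it was 61.0 FPKM in NPCs. Heparan sulfate enzymes, which shape the sugars that bind growth factors, had a median of 0.71, with 10 of 12 higher. Relative to genes of like length their median was 0.43. SULF1, which removes sulfate groups, was at 0.54 and 6.52 FPKM. All 9 compared genes with an S100 symbol, which name small calcium-binding proteins and, in S100PBP, a partner of one, were lower, with a median of -0.79, from S100A16 at 39.9 and 3.27 FPKM to S100A4 at 18.3 and 18.1 FPKM. Of 6 keratins, the filaments of epithelia, KRT19 was at 81.9 and 2.71 FPKM and KRT18 at 358 and 95.3 FPKM, with a median of -1.61. KRT10, a keratin of skin, was the only higher one, at 7.38 and 7.61 FPKM. Annexins, membrane-binding proteins, had a median of -0.64, and ANXA2 stood at 706 and 386 FPKM.

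Regulators of splicing and of neural fate were among the genes with opposite differences. The epithelial splicing factor ESRP1 was at 34.6 FPKM in the diploid and 1.77 FPKM in the haploid library. All 3 muscleblind proteins, which promote adult splice forms, were at least 2-fold higher, with MBNL1 at 2.44 and 11.4 FPKM. FOXP4, a forkhead factor, was at 14.1 and 47.8 FPKM, SOX3, an X-linked neural factor, at 13.7 and 45.9 FPKM, and SP8, a forebrain factor, at 0.38 and 8.22 FPKM. Lower in haploid ESCs were SOX21, another SOX factor, at 28.8 and 0.63 FPKM, and RBFOX3, a splicing regulator of neurons, at 5.85 and 0.23 FPKM. Genes of neurons went both ways, with a median of 0.20 over 9 markers, 5 of them higher. Axon guidance genes of the semaphorin, plexin, netrin and SLIT families were near all genes, with a median of 0.12 and 21 of 36 higher. SLIT2, a repellent of axons, had the highest ratio of these, at 1.51 and 13.6 FPKM. FEZ1, an axon transport adaptor, was at 6.79 and 53.7 FPKM. Sodium and calcium channels had a median of -0.68 over 12 genes, with CACNA1H, a low-voltage calcium channel, at 11.3 and 0.14 FPKM. KCNMB1, a potassium channel subunit of smooth muscle, was at 0.43 and 8.51 FPKM, the only one of 29 potassium channels past 4-fold.

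Genes of meiosis were mostly too low to compare, while primordial germ cell and antigen presentation genes were low in part. Of 28 measured genes of meiosis and sperm formation, 7 passed the filter. Of the primordial germ cell genes 7 of 12 passed, and of the antigen presentation genes 8 of 14. SOHLH2, a factor of early germ cells, stood at 2.22 FPKM in the diploid and 37.7 FPKM in the haploid library, and STAG3, a cohesin subunit of meiosis, at 0.06 and 4.64 FPKM. MOV10L1, a helicase of the piRNA pathway, was at 8.68 FPKM in diploid ESCs and listed at 0 in haploid ESCs. The meiotic genes DDX4, DAZL and SYCP3 were below 0.2 FPKM in both libraries. KIT, the receptor of stem cell factor in germ cells, was at 19.1 and 0.84 FPKM and PRDM1, a repressor that sets germ cell fate in mouse, at 6.63 and 0.72 FPKM. DPRX, a homeobox gene of the early primate embryo, was at 27.7 FPKM in diploid ESCs and listed at 0 in haploid ESCs. KLF5, a factor of the early embryo, was at 33.4 and 2.13 FPKM. Of 14 measured trophectoderm and amnion genes 3 passed the filter, and all 3 were lower. KRT7, an epithelial keratin, was at 10.8 and 0.34 FPKM, VTCN1, an immune checkpoint ligand, at 9.91 and 5.54 FPKM and TFAP2C, a transcription factor, at 10.1 and 5.85 FPKM. The trophoblast factors GATA3 and CDX2 were under the filter, at 0.65 and 0.42 FPKM and at 0.08 and 0.03 FPKM. Among genes that present antigens, B2M, the light chain of class I molecules, was at 227 and 187 FPKM. Rows of the class I heavy chains disagreed, MAMU-A standing at 25.6 and 108 FPKM and MAMU-B at 11.99 FPKM and listed at 0. These are near copies of one another, and their reads are uncertain. Interferon response genes had a median of 0.20 over 12 genes, with ISG15 at 2.52 and 2.85 FPKM.

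Counting by level alone, more genes were on in diploid than in haploid ESCs. Of the compared genes, 66 (0.554%) stood at 5 FPKM or more in diploid ESCs and at 0.5 FPKM or less in haploid ESCs, and 23 (0.193%) stood the other way. Those on in diploid ESCs alone included EID1, an inhibitor of the coactivator p300, at 58.8 and 0.26 FPKM, CST3, the protease inhibitor cystatin C, at 21.5 and 0.4 FPKM, and G0S2, a lipase inhibitor, at 11.2 and 0.16 FPKM. In NPCs 19 of the 66 stood at 5 FPKM or more, CST3 among them at 213 FPKM, and 29 at 0.5 FPKM or less. Of the 62 with a known length 24 belonged to the shortest length class, which holds 1 in 5 of all genes, and 13 (20.97%) lie on chromosome 19, which holds 7.28% of all placed genes. Those on in haploid ESCs alone included COL25A1, a transmembrane collagen, at 0.33 and 12.7 FPKM, PLAGL1, an imprinted zinc finger gene, at 0.5 and 9.3 FPKM, and RHOJ, a small GTPase of endothelium, at 0.11 and 7.59 FPKM. In NPCs 15 of the 23 were at 0.5 FPKM or less and 2 at 5 FPKM or more, PLAGL1 at 5.55 FPKM and GPM6A, a neuronal membrane glycoprotein, at 7.13 FPKM. TPTE2, RANGRF and TMEM204 also belong to the 23, with TMEM204, an endothelial membrane protein, listed at 0 in diploid ESCs and NPCs and at 7.14 FPKM in haploid ESCs.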

How the data were processed

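Per the labels' protocols, a BGISEQ-500 instrument sequenced libraries made from total RNA. Mapping was to the UCSC assembly Rhesus8, allowing 2 mismatches, with read counting by featureCounts at its defaults and a requirement of over 10 summed reads per gene, per the labels' protocols. The aligner STAR 2.4 is listed in the submitters' processing notes. Expression is given as FPKM in the table that the authors deposited, and its values were used unchanged. Read totals, the strand setting and the formula behind FPKM are not given in sources used here, so reads of overlapping or antisense genes cannot be separated.

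A column was tied to a sample through its description. The labels matched no sample to 1 column of sample values, which was left out, so 1 of 4 samples was not analysed here. The T2T-MMU8v2.0 gene table held 19875 of the 23697 gene IDs. It named 289 compared genes and otherwise gave only chromosome, gene order and length rank, and it is another assembly than Rhesus8. Of the compared rows, 87 share a symbol with another row.

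Ratios used a pseudocount of 1 FPKM. The genes compared, the 65 lists and the 70 families were chosen with earlier results of these data known. Genes were named by a rule: the 4 marker genes of the comparison, the defining genes of each list, up to 4 highest and 4 lowest members of each list past 4-fold or otherwise its highest and lowest ratio, the 25 highest and 25 lowest ratios among genes reaching 10 FPKM, and the 10 most abundant genes of each library. All other genes named, among them most X-linked genes outside the lists and all genes given for being neighbours, were chosen after their values were seen. Other pseudocounts, filters, scalings and thresholds were tried, and a length adjustment, the diploid NPC comparison of the X chromosome and the list of genes that escape inactivation were added after seeing the data. The work used Python 3.11.15 with pandas 2.3.3, numpy 2.4.6, scipy 1.17.1 and matplotlib 3.10.9, and its calculations were tested on simulated data. Results on a few genes are not reported here.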

Additional observations from a re-analysis of the deposited data

How the results depend on the processing

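No paired analysis was possible because each group held 1 library and no test was made. The counts of 95 genes at least 4-fold higher and 262 at least 4-fold lower depend on the pseudocount and filter: they were 217 and 526 with a pseudocount of 0.1 FPKM and 63 and 161 among genes averaging 5 FPKM or more. With each library rescaled to a sum of 1000000 there were 215 higher, and 151 were higher over all rows. Higher genes were then 37.9% and 29.2% of the 4-fold calls, against 26.6% in the main setting. Both settings also admit more genes, and rescaling moved the median of all genes up by 0.18. The parts of these in the shares were not separated. At 2-fold there were 861 and 1059, and at 8-fold 16 and 68. The counts of genes on in haploid or in diploid ESCs alone were 7 and 24 among genes averaging 5 FPKM or more, and 3 and 7 with limits of 0.1 and 10 FPKM. The difference of 0.63 between X-linked and autosomal medians was 0.39 with no filter and 0.0057 for diploid NPCs over diploid ESCs, an alternative added after seeing the data. Of the list medians at least 0.5 away from that of all genes, 5 changed sides. BMP and GDF ligands stood at -0.0204 with no filter, and Notch at -0.21 with no filter and -0.0022 when rescaled. POU factors stood at 0.21 under the stricter filter. Meiosis genes stood at 3.502 there, a value set by SOHLH2 alone, whose log2 ratio was 3.59. Cancer-testis families stood at -0.66 on autosomes alone, where few members remain because most are X-linked. With ratios taken relative to genes of like length, an alternative added after seeing the data, 99 of 119 list medians moved by less than 0.25 and none of those at least 0.5 away changed sides. Values near 0 FPKM rest on few reads, and without replicates no difference here can be set against the spread between cultures.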

Other observations

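Runs of neighbouring genes that differed alike were also seen outside the X chromosome, and they are given as values only. Around GLIPR1 on chromosome 11, 4 neighbouring compared genes, ATXN7L3B, CAPS2, GLIPR1L1 and GLIPR1, were all at least 2-fold higher in haploid ESCs, with log2 ratios from 1.23 to 4.80. On chromosome 10 a run of 4, TRABD, PANX2, MOV10L1 and PIM3, was lower, from -3.28 to -1.10. On chromosome 15 CORO2A, NANS, ANP32B and TRMO were lower, from -2.11 to -1.25. Keratin genes KRT7, KRT8 and KRT18 formed a run of 3 on chromosome 11, and 3 kallikrein proteases, KLK8, KLK10 and KLK13, a run on chromosome 19, from -2.06 to -1.46. Genes that share a neighbourhood can also share reads, which was not tested.

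Single genes with large differences fell outside the classes described. DPEP1, a membrane dipeptidase, stood at 0.72 FPKM in the diploid and 17.3 FPKM in the haploid library. ENPP2, the enzyme autotaxin that makes a lipid signal, was at 2.58 and 35.9 FPKM, and BCHE, a cholinesterase, at 0.73 and 12.1 FPKM. TNIK, a kinase of Wnt signalling, was at 7.33 and 48.5 FPKM and MEIS3, a homeobox partner of HOX proteins, at 5.95 and 40.2 FPKM. Among the lower genes, LCK, a tyrosine kinase best known in T cells, was at 53.2 and 2.22 FPKM, WFDC2, a secreted epithelial protein, at 70.1 and 2.49 FPKM, and SFN, the stratifin of epithelia, at 61.5 and 3.46 FPKM. IGFBP6, which binds insulin-like growth factors, was at 27.9 and 0.75 FPKM, and PGA4, a pepsinogen, at 18.9 and 0.36 FPKM.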
